A study of Mus musculus with 60 samples.

Results

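Pectoralis muscle of Mstn-null mice was compared with that of wild-type mice at 35 days of age (d35) across every probe set of the array that is not a control. The members were the samples titled d35, that is 10 RNA pools on 20 arrays, of 30 pools on 60 arrays in all. The whole study compared both genotypes also before birth, in embryos taken whole at 13.5 d.p.c. and in hindquarters at 17.5 d.p.c. One group was Mstn-null C57BL/6J mice and the other was wildtype C57BL/6J mice, and the labels give no treatment for either. Each genotype was sampled as 5 pools, and each pool held RNA of 3 animals, which makes 15 animals per genotype. Pooling leaves no value for a single animal, and the sex of the animals is not given in the sources used here. The Mstn transcript itself was not analysed here, so the genotypes rest on the labels.

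Myostatin is a secreted factor of the TGF-beta family that skeletal muscle makes and that holds back muscle growth. It signals through activin type II receptors to SMAD proteins, and animals without it have enlarged muscles with more fast glycolytic and fewer slow oxidative fibres. A fast fibre draws its ATP mainly from glycogen and glycolysis, and it carries an extensive membrane system that couples the action potential to calcium release. A slow fibre depends on mitochondria, fatty acids and myoglobin. In bulk muscle RNA, fewer cells of a type and less RNA per cell cannot be told apart.

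The deposited values were log2 intensities from RMA, and differences below are Mstn-null minus wild-type on that log2 scale, the opposite of the direction in which the study lists its ratios. The 10 pools gave array medians between 6.876 and 6.936 on the MOE430A chip and between 6.157 and 6.199 on the MOE430B chip. The median SD of a probe set between pools was 0.0945 in wild-type and 0.0936 in Mstn-null muscle. Wild-type pools 2 and 3 stood apart on the first principal component, which held 38.7% of the variance. B cell genes averaged 8.13 in wild-type pool 2 and 7.31 in wild-type pool 3, against 6.47 to 6.94 in the other 8 pools.

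Some other measures also differed between genotypes, and others did not pass a test. Xist, the transcript of the inactive X chromosome, was read at the probe set with its largest difference. It was 9.40, 9.16, 9.71, 9.01 and 9.04 in wild-type pools 1 to 5. In the Mstn-null pools it was 7.41, 8.46, 8.55, 7.88 and 8.59 (q = 0.0102). The brightest Xist probe set differed by -0.50 (q = 0.0499) and the dimmest by -0.48 (q = 0.0233). Eif2s3y, a Y-linked gene, was higher in Mstn-null muscle by 0.78 (q = 0.0353), and the Y-linked genes Kdm5d and Uty differed by 0.03 (q = 0.563) and 0.07 (q = 0.350). White adipocyte genes were lower in Mstn-null muscle at all 17 measured members, with 8 called. Their mean level ran from 10.1 to 10.7 in wild-type and from 9.25 to 10.2 in Mstn-null pools. For the actin control probe sets, the 3' level minus the 5' level, a sign of RNA integrity, was 0.134 to 0.579 in wild-type and 0.0599 to 0.211 in Mstn-null pools on the MOE430A chip (exact permutation test, two-sided, p = 0.0873, adjusted over 4 tests 0.175). Wild-type pool 2 had the highest value, and the ranges overlapped. For the Gapdh control the genotypes differed by -0.01 on the MOE430A chip (exact permutation p = 0.651) and by -0.06 on the MOE430B chip (exact permutation p = 0.143). These values by pool are drawn in the plot of cell types, sex-linked genes and RNA state.

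**Figure D1:**
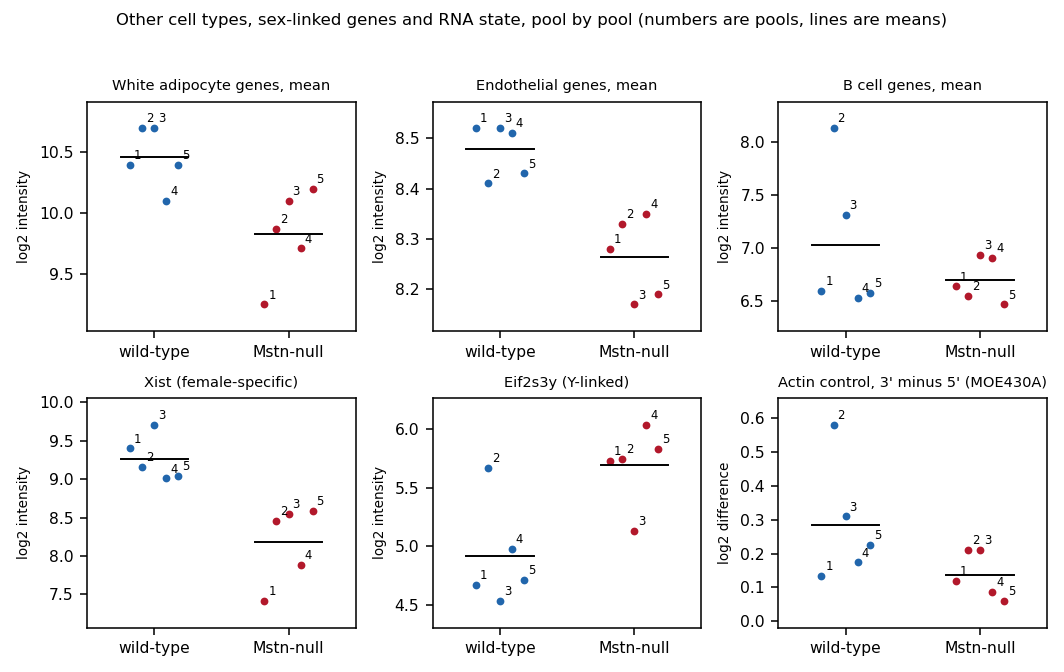
The panels give values in the 5 wild-type pools (blue, numbered 1 to 5) and the 5 Mstn-null pools (red), with a line at each mean. The y axes are log2 intensity, and log2 difference for the actin control. Endothelial genes and Xist do not overlap between genotypes, where the Xist probe set was chosen among those without overlap. Wild-type pools 2 and 3 are highest for B cell genes (8.13 and 7.31).

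A probe set was called where limma gave a Storey q under 0.05. Of 45037 probe sets, 2062 were called (4.58%), of which 936 (2.08%) were higher in Mstn-null and 1126 (2.50%) were higher in wild-type muscle. They named 677 and 808 genes. The median fold among called probe sets was 1.22 for those higher in Mstn-null and 1.26 for those higher in wild-type. At 2-fold or more there were 7 higher in Mstn-null and 25 higher in wild-type, and 12 of those 25 were outside the slow-twitch sarcomere and fatty acid oxidation lists. At 1.5-fold or more there were 74 and 143. The largest fold was 2.86 for a gene higher in Mstn-null and 6.11 for a gene higher in wild-type, so the genes higher in Mstn-null muscle were nearly as many and differed by less. The pools of the genotypes did not overlap for 721 of the 936 and for 763 of the 1126, where 2.77% and 2.48% of all probe sets had no overlap in those directions (5.25% in either).

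**Figure D2:**
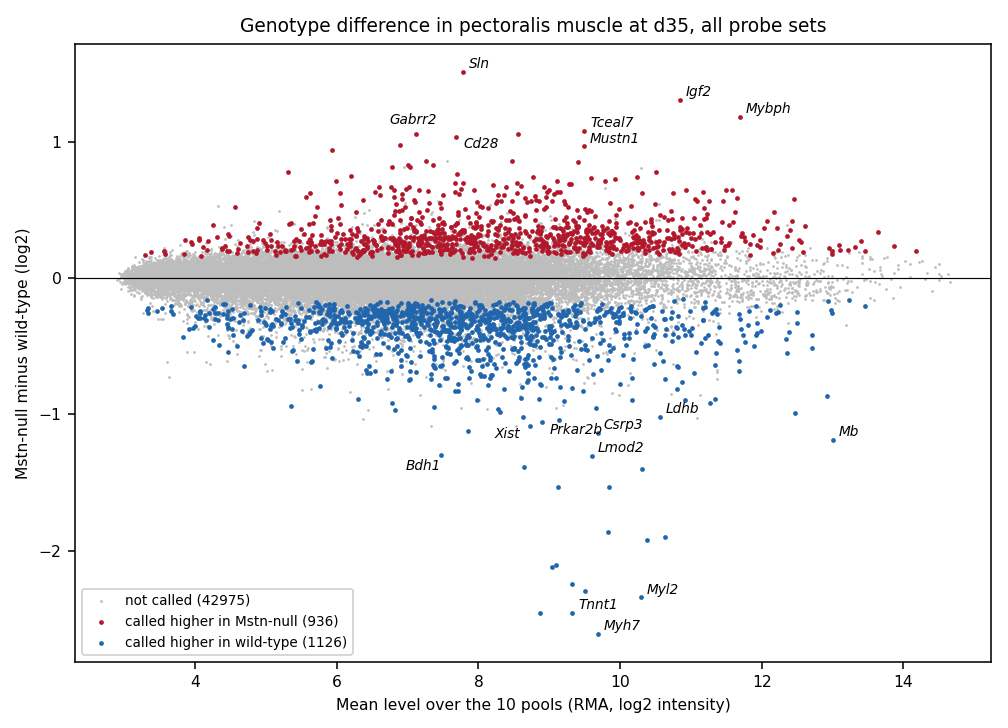
Each point is a probe set, with the mean log2 intensity over 10 pools on the x axis and the difference Mstn-null minus wild-type (log2) on the y axis. The 936 probe sets called higher in Mstn-null muscle (red) reach 1.52 at Sln, and the 1126 called higher in wild-type muscle (blue) reach -2.61 at Myh7.

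Several of these counts depend on which pools enter the test. Without wild-type pools 2 and 3, 232 probe sets were called higher in Mstn-null and 406 higher in wild-type muscle. A sex-linked covariate was the level of Xist minus Eif2s3y, each at its brightest probe set, which is not the Xist probe set listed by pool above. With it, 2061 of the 2062 differences kept their sign and their median ratio to the differences without it was 0.999. Their standard errors were 1.63 times as large at the median, and 14 and 33 probe sets were called. With the mean white adipocyte level as a covariate, 2060 kept their sign, the median ratio was 0.849, the standard errors were 1.46 times as large at the median, and 20 and 51 were called.

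The genes with the largest difference higher in Mstn-null muscle were Sln, Igf2 and Mybph, all from the list of genes used in developing or regenerating muscle. Sln encodes sarcolipin, a small inhibitor of the calcium pump of the sarcoplasmic reticulum. It was 6.75, 7.0, 7.11, 7.06 and 7.21 in wild-type pools 1 to 5 and 8.22, 8.02, 8.77, 8.47 and 9.24 in the Mstn-null pools. The lowest Mstn-null pool lay above the highest wild-type pool. The fold was 2.86 (difference 1.52 ± 0.181 SE, q = 0.000623). A dimmer Sln probe set differed by 0.03 and was not called.

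Igf2, a growth factor of fetal tissues, was 10.3, 9.94, 10.1, 10.5 and 10.1 in wild-type and 11.4, 11.5, 11.3, 11.6 and 11.6 in Mstn-null pools. The groups did not overlap, and the spread within each was small beside the gap. Igf2 was 2.49-fold higher in Mstn-null muscle (1.31 ± 0.0985 SE, q = 1.65e-05), and its other probe set was also called (0.83). Mybph encodes myosin binding protein H, which lies on the thick filament. Its level was 11.1, 10.6, 11.0, 11.5 and 11.3 in wild-type and 12.2, 12.3, 12.1, 12.5 and 12.2 in Mstn-null pools, a fold of 2.27 (1.18 ± 0.134 SE, q = 0.000486). Every Mstn-null pool was above every wild-type pool.

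Mustn1, a small nuclear protein of developing muscle and bone, was 8.95, 9.04, 8.89, 9.17 and 9.01 in wild-type and 10.3, 9.90, 10.3, 9.48 and 9.86 in Mstn-null pools (1.96-fold, q = 0.00163). Here the Mstn-null pools spread more widely than the wild-type pools, with no overlap. Of 17 measured genes of the developmental list, 6 were called higher in Mstn-null muscle and 0 in wild-type, against 2.70% and 3.26% of all 18193 genes at their brightest probe set (5.96% in either direction). With wild-type pools 2 and 3 left out, 4 of the 17 were called. In that fit 134 of all 18193 genes were called higher in Mstn-null and 233 in wild-type. Counts for the lists below are to be read beside these shares of all genes. This list and those below were chosen with earlier results of these data known, so a count above these shares is no independent support. The developmental list's median difference was 0.13, where the median of all genes was 0.01. With the white adipocyte covariate these medians were 0.05 and -0.01. The other called members were Myh8, the perinatal myosin heavy chain (0.44, q = 0.0168), and Actc1, the alpha actin of heart and fetal muscle (0.34, q = 0.0125). Embryonic myosin Myh3 differed by -0.01 (q = 0.616), Ncam1 by 0.02 (q = 0.590) and the fetal acetylcholine receptor subunit Chrng by 0.06 (q = 0.488).

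The promoters of genes at both ends of the comparison are shown here because the arrays measure transcripts and the named regulators of muscle genes bind short motifs near the start site. The windows are the 250 bases before the RefSeq start (GRCm38.p6), 5′ to 3′ on the gene's strand. Capitals mark matches on either strand to an E-box of the MyoD family (CAGCTG), a loose MEF2 pattern (CTANNNNTAG), an MCAT element of the TEAD family (CATTCC) and a SMAD element (CAGACA). The MEF2 pattern takes any letters in its middle. Mybph lies at chr1:134193198-134193447 (plus strand), Ldhb at chr6:142507958-142508207 (minus strand) and Myh2 at chr11:67170777-67171026 (plus strand).
Mybph: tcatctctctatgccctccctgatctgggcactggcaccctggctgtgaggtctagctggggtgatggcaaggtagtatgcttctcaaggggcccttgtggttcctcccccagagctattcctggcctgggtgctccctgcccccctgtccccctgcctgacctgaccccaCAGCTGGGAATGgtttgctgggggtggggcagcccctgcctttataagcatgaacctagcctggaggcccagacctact
Ldhb: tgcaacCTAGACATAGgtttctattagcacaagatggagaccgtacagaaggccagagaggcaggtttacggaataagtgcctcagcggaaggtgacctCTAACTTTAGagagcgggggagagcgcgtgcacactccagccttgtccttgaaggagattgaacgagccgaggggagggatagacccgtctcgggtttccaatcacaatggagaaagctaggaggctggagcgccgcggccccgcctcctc
Myh2: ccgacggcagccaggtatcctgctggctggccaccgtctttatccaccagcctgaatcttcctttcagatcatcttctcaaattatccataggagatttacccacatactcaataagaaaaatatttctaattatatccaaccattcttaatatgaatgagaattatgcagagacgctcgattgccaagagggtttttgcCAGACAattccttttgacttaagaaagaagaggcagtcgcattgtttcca
In Mybph an E-box from base -79 to -74 is followed directly by an MCAT match on the other strand from -73 to -68. Ldhb holds 2 matches to the loose MEF2 pattern, from -244 to -235 and from -151 to -142. Their middle letters, GACA and ACTT, are not all A or T, so they are not shown to be MEF2 sites. Myh2 holds a SMAD match from -50 to -45. Of 14368 measured genes with a window, 12.5% held the E-box, 2.92% the loose MEF2 pattern, 11.4% the MCAT and 14.6% the SMAD letters. Among 398 genes called higher in Mstn-null muscle these shares were 12.1%, 3.77%, 11.8% and 12.3%, and among 487 called higher in wild-type they were 13.8%, 3.90%, 13.3% and 15.8%. Of the 30 genes with the largest differences, 22 had a window and 8 held a match at any of their start sites. The shares above use 1 window per gene, so the 8 are not comparable with them. Igf2, Mb and Csrp3 matched only at a further start site. The promoters printed above all hold a match. A match describes the letters and is no evidence of binding.

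Next by size among genes higher in Mstn-null muscle, again chosen without overlap, came Tceal7, Gabrr2 and Cd28. Tceal7, a regulator from the transcription elongation factor A-like family, was 8.85, 8.66, 9.02, 9.15 and 9.09 in wild-type and 10.1, 10.0, 9.62, 10.3 and 10.2 in Mstn-null pools. The groups did not overlap and the fold was 2.12 (1.08 ± 0.120 SE, q = 0.000421). Gabrr2, a subunit of a GABA-gated chloride channel, was 6.71, 6.23, 6.70, 6.59 and 6.75 in wild-type and 7.42, 7.79, 7.38, 7.84 and 7.86 in Mstn-null pools (2.09-fold, q = 0.000409). Every Mstn-null pool was again higher.

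Cd28 encodes a co-stimulatory receptor of T cells. It was 7.22, 7.28, 7.2, 7.12 and 6.98 in wild-type and 7.90, 8.36, 8.05, 8.44 and 8.25 in Mstn-null pools, 2.06-fold higher in Mstn-null without overlap (q = 7.93e-05), and its second probe set was called in the same direction (0.94, q = 0.0356). None of the other 11 measured T cell markers was called (limma), and their differences ran from -0.52 at Cd2 to 0.09 at Zap70. Cd3e differed by -0.09 (q = 0.481), Cd4 by -0.11 (q = 0.385) and Cd8a by -0.05 (q = 0.418). The mean level of the list was 6.54 to 7.51 in wild-type and 6.65 to 6.92 in Mstn-null pools.

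Mt3, a metal-binding metallothionein, rested on few pools. It was 6.79, 6.72, 6.86, 6.91 and 6.88 in wild-type and 8.82, 7.61, 7.64, 7.41 and 6.99 in Mstn-null pools (1.82-fold, q = 0.0483). Mstn-null pool 1 was the highest by a wide gap, and the call was lost on leaving out any of 8 pools. With the white adipocyte level as a covariate the difference was 0.15. Rab40b, a small GTPase that recruits a ubiquitin ligase, was 1.76-fold higher in Mstn-null muscle (q = 0.00162), and BC023105, a predicted gene, was 1.97-fold higher (q = 0.0106). Both had no overlap between genotypes.

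The rest of the 15 genes included Slc16a3, Atp1b2, Atp1b4, Stbd1 and Gatm. Slc16a3 encodes MCT4, the carrier through which glycolytic fibres export lactate. Its level was 10.4, 10.2, 9.78, 10.4 and 9.85 in wild-type and 10.9, 10.7, 10.9, 10.9 and 11.0 in Mstn-null pools, a fold of 1.72 (q = 0.00251) with no overlap. Atp1b2, a beta subunit of the sodium pump, was 1.81-fold higher (q = 0.00255), and Atp1b4, a relative of those subunits, was 1.78-fold higher (q = 0.0123). Stbd1, which tethers glycogen to membranes, was 1.82-fold higher (q = 0.00102). Gatm, the enzyme of the first step of creatine synthesis, was 6.41, 6.44, 6.45, 6.35 and 6.18 in wild-type and 7.47, 7.47, 6.92, 7.13 and 6.94 in Mstn-null pools (1.77-fold, q = 0.00126). Gamt, the enzyme of the next step, was 1.59-fold higher (q = 0.0102).

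**Figure D3:**
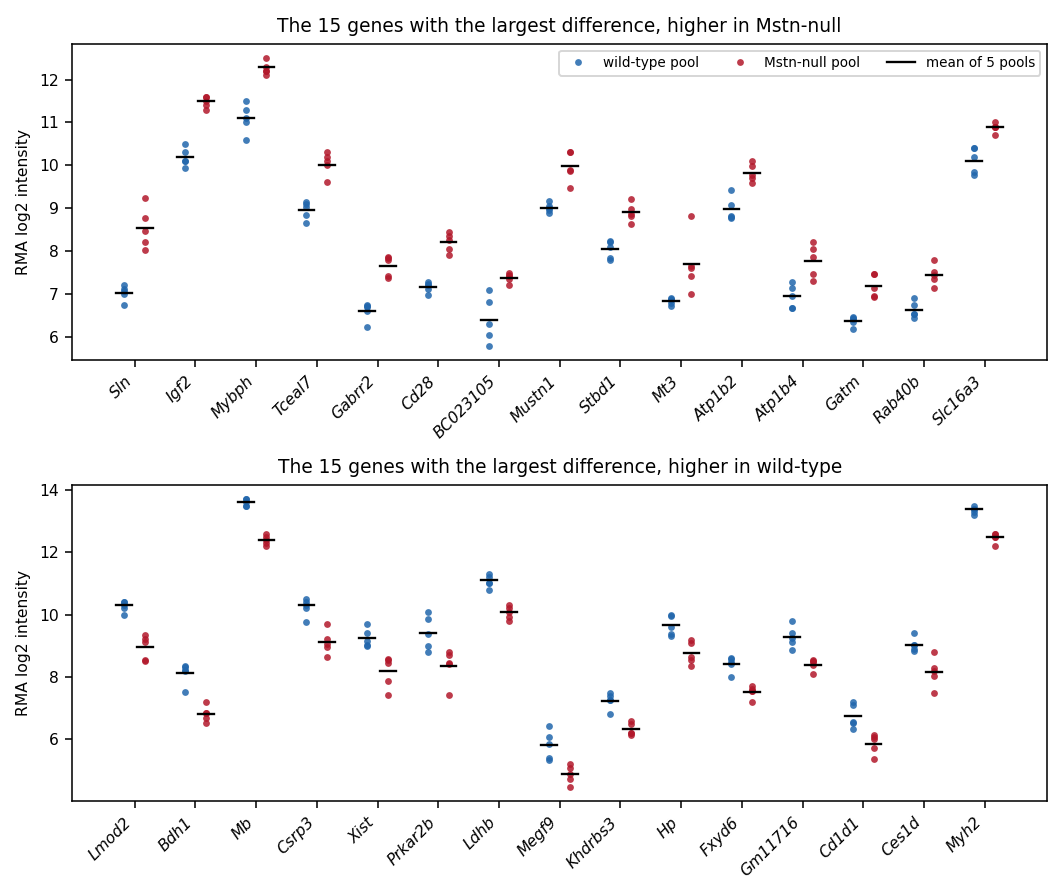
RMA log2 intensity of the 15 genes with the largest difference in each direction, 1 point per pool (blue wild-type, red Mstn-null) and a line at the mean of 5 pools. Genes were chosen among those without overlap between genotypes and outside the slow-twitch and fatty acid oxidation lists, so the separation is part of the choice; Mt3 shows 1 Mstn-null pool at 8.82.

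The genes with the largest difference higher in wild-type muscle, beyond the slow sarcomere and fatty acid oxidation lists, were Lmod2, Bdh1, Mb, Csrp3, Xist (given above), Prkar2b and Ldhb, in that order. These too were chosen among probe sets without overlap, so their separation is part of the choice. Lmod2, a leiomodin that elongates thin filaments, was 10.4, 10.0, 10.2, 10.4 and 10.3 in wild-type and 9.13, 9.23, 9.34, 8.51 and 8.54 in Mstn-null pools. The groups did not overlap and Mstn-null pools 4 and 5 were lowest. It was 2.47-fold higher in wild-type (-1.30 ± 0.155 SE, q = 0.000605). Csrp3, the muscle LIM protein of the Z-disc, was 10.5, 9.75, 10.2, 10.3 and 10.4 in wild-type and 9.22, 9.05, 9.70, 8.65 and 8.97 in Mstn-null pools (2.20-fold, q = 0.00283). The highest Mstn-null pool, 9.70, came close to the lowest wild-type pool.

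Mb encodes myoglobin, the oxygen store of oxidative fibres. It was 13.7, 13.5, 13.6, 13.5 and 13.7 in wild-type and 12.5, 12.3, 12.6, 12.4 and 12.2 in Mstn-null pools, 2.28-fold higher in wild-type (-1.19 ± 0.0725 SE, q = 4.92e-06). The groups were far apart. A dimmer Mb probe set differed by 0.04 and was not called. Bdh1, an enzyme of ketone body use in mitochondria, was 8.18, 8.21, 7.53, 8.32 and 8.34 in wild-type and 7.2, 6.52, 6.84, 6.86 and 6.67 in Mstn-null pools (2.45-fold, q = 0.000573). Wild-type pool 3 was the lowest of its group and still above every Mstn-null pool.

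Ldhb, the heart-type lactate dehydrogenase subunit that favours lactate use, was 11.0, 10.8, 11.0, 11.2 and 11.3 in wild-type and 9.94, 10.2, 10.1, 9.81 and 10.3 in Mstn-null pools, 2.03-fold higher in wild-type (q = 0.000144). All 4 Ldhb probe sets were called in this direction. Myh2, the myosin heavy chain of type IIa fibres, which are fast and oxidative, was 13.4, 13.2, 13.3, 13.4 and 13.5 in wild-type and 12.6, 12.5, 12.5, 12.2 and 12.6 in Mstn-null pools (1.82-fold, q = 7.93e-05). Neither gene overlapped between genotypes. Khdrbs3, an RNA-binding splicing regulator, was 1.89-fold higher in wild-type (q = 0.00122), Fxyd6, a regulator of the sodium pump, 1.85-fold (q = 0.00110), and Gm11716, a predicted gene, 1.85-fold (q = 0.00346).

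A further set of genes higher in wild-type muscle moved with the white adipocyte level. Prkar2b, a regulatory subunit of protein kinase A, was 8.99, 9.85, 10.1, 8.81 and 9.39 in wild-type and 7.42, 8.43, 8.70, 8.46 and 8.80 in Mstn-null pools (2.08-fold, q = 0.0339). The edges of the groups nearly met, and leaving out any of 7 pools lost the call. Its difference went from -1.06 to -0.08 with the adipocyte level as a covariate. Hp, the haemoglobin-binding protein haptoglobin, was 1.87-fold higher in wild-type (q = 0.00929) and went from -0.90 to -0.33. Ces1d, a lipase of fat cells, was 1.84-fold higher (q = 0.0144) and went from -0.88 to -0.29. Cd1d1, which presents lipid antigens, was 1.85-fold higher (q = 0.0105) and went from -0.89 to -0.36, and Megf9, a membrane protein, was 1.91-fold higher (q = 0.0126) and went from -0.94 to -0.36. None of these 5 was called in that fit (limma, q between 0.507 and 0.855 for Prkar2b, Hp, Ces1d, Cd1d1 and Megf9). The fit kept 28 of the 192 named calls, so a lost call by itself does not set these 5 apart. Under the same covariate Mb was at -1.26, Myh2 at -0.88, Ldhb at -0.96, Igf2 at 1.17 and Cd28 at 1.18, and those 5 were called.

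The genes that couple the action potential to contraction leaned toward Mstn-null muscle. Of 23 measured excitation-contraction coupling genes, 11 were called higher in Mstn-null and 0 in wild-type, against 2.70% and 3.26% of all genes. The median difference was 0.22 (0.15 with the white adipocyte covariate), and 20 of the 23 differences were positive. Cacng1, the gamma subunit of the muscle calcium channel, was 9.86, 9.83, 9.79, 10.1 and 9.80 in wild-type and 10.8, 10.6, 10.7, 10.6 and 10.4 in Mstn-null pools. It was 1.67-fold higher without overlap (q = 0.000103). Asph, whose locus also encodes junctin of the calcium release complex, was 1.48-fold higher (q = 0.00102), though 2 dimmer Asph probe sets differed by -0.04 and -0.12. Sypl2, or mitsugumin 29, a triad membrane protein, was 1.40-fold higher (q = 0.00435). Bin1, which shapes the transverse tubules, was 1.39-fold higher (q = 0.00169), with a dimmer probe set at -0.01.

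The other 7 called members, named after their values were seen, were Cav3 (0.43), Jph2 (0.37), Cacnb1 (0.35), Jph1 (0.26), Stac3 (0.23), Casq1 (0.23) and Hrc (0.19). They encode a caveolin, both junctophilins that join the tubule to the reticulum, a channel subunit and an adaptor of the same channel, and calcium binders of the reticulum. The release channel Ryr1 differed by 0.10 (q = 0.268) and the fast calcium pump Atp2a1 by 0.03 (q = 0.492). Without wild-type pools 2 and 3, the count was 5 and the median 0.15.

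Neuromuscular junction genes gave 5 called higher in Mstn-null and 1 higher in wild-type of 15, with a median of 0.16. This median was 0.04 with the white adipocyte covariate. Ache, the enzyme that breaks down acetylcholine at the synapse, was 8.53, 8.20, 8.39, 8.59 and 8.40 in wild-type and 8.85, 8.98, 8.80, 9.0 and 8.78 in Mstn-null pools, 1.38-fold higher (q = 0.00390). All Mstn-null pools were above all wild-type pools. The adult receptor subunit Chrne was 1.29-fold higher (q = 0.0243), the subunit Chrna1 1.28-fold (q = 0.0144), and Rapsn, which clusters the receptor, 1.2-fold (q = 0.0489). The fifth was Ufsp1 (0.21), named after its value was seen. Agrn, the signal from the nerve that starts clustering, was 1.16-fold higher in wild-type (q = 0.0436), with another probe set at 0.15 that was not called. Leaving out wild-type pools 2 and 3 left 1 of the 15 called, higher in Mstn-null, in a fit that called 134 of all 18193 genes in that direction.

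The dystrophin complex and costamere, which tie the sarcomere to the membrane, had 4 of 19 genes called higher in Mstn-null and 0 in wild-type (median 0.11). With the white adipocyte covariate the median was 0.04. Dtna, alpha-dystrobrevin, was 1.55-fold higher (q = 0.00193) and 3 further Dtna probe sets were called the same way. Sntb1, a syntrophin, was 1.22-fold higher (q = 0.0199), Vcl, vinculin, 1.19-fold (q = 0.0463) and Sgca, alpha-sarcoglycan, 1.18-fold (q = 0.0319). A dim Sntb1 probe set differed by -0.03. In the absence of wild-type pools 2 and 3, 1 of the 19 was called.

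Z-disc, titin and M-band genes split. Of 31, 4 were called higher in Mstn-null and 6 in wild-type (2 and 5 with wild-type pools 2 and 3 left out), and the median was -0.01. Pdlim7 and Pdlim3, PDZ-LIM scaffolds of the Z-disc, were 1.57-fold (q = 6.31e-05) and 1.56-fold (q = 0.00126) higher in Mstn-null muscle without overlap. The thin filament capping proteins Tmod1 and Tmod4 were 1.26-fold (q = 0.0232) and 1.17-fold (q = 0.0466) higher there. Beside Lmod2 and Csrp3, the stretch-response gene Ankrd2 was 1.59-fold (q = 0.0322) and the M-band protein Myom3 1.51-fold (q = 0.00259) higher in wild-type. The remaining called members, Fhl1 (-0.45) and Lmod3 (-0.38), were named after their values were seen. Ttn was called in both directions at different probe sets, as were Mbtps1 and Rnf214, the only 3 genes of which that was so.

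Fast-twitch sarcomere genes were called in both directions, with folds of 1.25 or less at the brightest probe sets. Over all genes, 2.70% were called higher in Mstn-null and 3.26% in wild-type. With wild-type pools 2 and 3 left out, 1 fast-twitch gene was called in each direction. Of 14 genes, 3 were called higher in Mstn-null, namely Myoz1 (1.21-fold, q = 0.0101), Mybpc2 (1.18-fold, q = 0.0140) and Actn3 (1.15-fold, q = 0.0166), which encode a Z-disc protein, a myosin binding protein and an actinin of fast fibres. Actn2, the actinin of all fibres, was 1.25-fold (q = 0.0126) and Myh1, the IIx myosin, 1.15-fold (q = 0.0272) higher in wild-type. Myh4, the IIb myosin, differed by 0.13 at its brightest probe set (q = 0.0992), which lies near the top of the intensity range, and by 0.58 at a dimmer one (q = 0.00126). Tnni2 differed by 0.03 (q = 0.470), Mylpf by 0.12 (q = 0.107), Pvalb by 0.12 (q = 0.124) and Tpm1 by 0.10 (q = 0.166). For Myh4 and Mylpf the study lists q-values under 0.05 at these brightest probe sets, and the cause of the disagreement was not tested. Dimmer probe sets differed by 0.15 and 0.19 for Tnni2 and by 0.06, -0.04 and -0.14 for Tpm1, none of them called. Ckm, muscle creatine kinase, differed by 0.08 at its brightest probe set (q = 0.213) and by 0.36 at a dimmer one (q = 0.0222). The brightest probe sets of Tnni2, Mylpf, Pvalb, Tpm1 and Ckm also lie near the top of the range. Their wild-type means were 14.2 to 14.6, where the highest value of any probe set was 14.81. Small differences there do not show that these genes were unchanged.

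**Figure D4:**
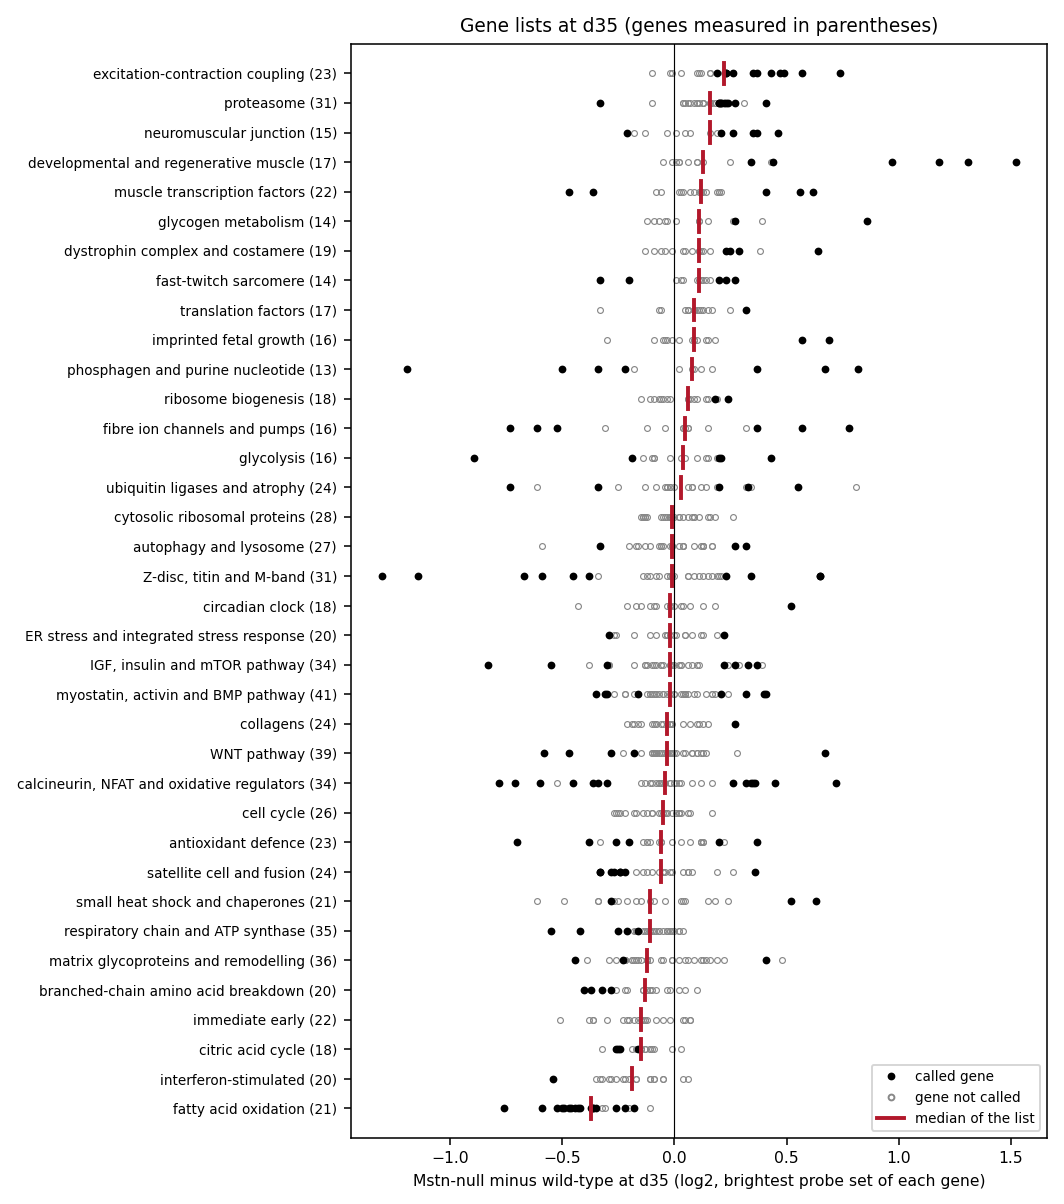
Differences Mstn-null minus wild-type (log2, x axis) of the measured members of 36 gene lists, sorted by median (red bar); filled points were called, open points were not, and the slow-twitch sarcomere list is left out for its range. Excitation-contraction coupling (median 0.22), the proteasome (0.16) and the neuromuscular junction (0.16) lie highest, and fatty acid oxidation (-0.37) lowest.

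Slow-twitch sarcomere and fatty acid oxidation genes set the other end of the scale. Of 13 slow genes, 9 were called higher in wild-type (median -1.90), led by Myh7 at 6.11-fold (q = 5.43e-05) and Tnnt1 at 5.50-fold (q = 1.65e-05). The list also holds Smtnl1 (2.06-fold, q = 9.83e-05), which as a member was left out of the genes ranked above. Tpm3 was not called at its brightest probe set (-0.44, q = 0.181), while the study lists another Tpm3 probe set as higher in wild-type. Of 21 fatty acid oxidation genes, 17 were called higher in wild-type (9 with wild-type pools 2 and 3 left out) and 0 in Mstn-null (median -0.37). Among those called was Slc25a20, the carnitine carrier, at 1.51-fold (q = 0.00355). With the white adipocyte covariate the slow and fatty acid oxidation medians were -1.94 and -0.22. With the sex-linked covariate they were -1.56 and -0.21.

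Transporters of the fibre membrane were divided by isoform. Of 16 channel and pump genes, 3 were called in each direction. Beside Slc16a3, the brighter probe set of Atp1b2 (1.48-fold, q = 0.000421) and the potassium channel Kcnc4 (1.29-fold, q = 0.0270) were higher in Mstn-null. The lactate importer Slc16a1, or MCT1, was 1.44-fold higher in wild-type (q = 0.00735). The sodium pump subunit Atp1b1 was 1.52-fold higher in wild-type (q = 0.000899), with 3 further probe sets called the same way. The potassium channel Kcnq5 was 1.66-fold higher in wild-type (q = 0.00490). Dim probe sets of Slc16a1 and Atp1b1 each differed by 0.04 and were not called.

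Among muscle transcription factors 3 of 22 were called higher in Mstn-null and 2 in wild-type (median 0.12, or 0.0 with the white adipocyte covariate). Smyd1, a muscle methyltransferase, was 1.54-fold (q = 0.0329), Eya4, a co-activator of fast fibre genes, 1.47-fold (q = 0.00486), and Tbx15, a T-box factor of glycolytic fibres, 1.33-fold (q = 0.00406) higher in Mstn-null. Vgll2, a TEAD cofactor, was 1.39-fold (q = 0.00490) and Tead1 itself 1.29-fold (q = 0.00565) higher in wild-type. Of 5 Mef2c probe sets, 1 was called (0.21, q = 0.0439), and of 6 Mef2a probe sets, 0 were called (limma, q between 0.126 and 0.384 for Mef2a), with 2 of the 6 negative.

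Of 24 satellite cell and fusion genes, 7 were called higher in wild-type and 1 in Mstn-null (median -0.06), and 1 in each direction with wild-type pools 2 and 3 left out. The called gene higher in Mstn-null was Cdh15, M-cadherin (1.29-fold, q = 0.00929). The adhesion molecules Jam3 (1.26-fold, q = 0.0143) and Jam2 (1.25-fold, q = 0.0117) and the Notch pathway genes Hes1 (1.21-fold, q = 0.0296) and Notch3 (1.2-fold, q = 0.0193) were higher in wild-type. A dimmer probe set of Jam3 differed by 0.05 and one of Jam2 by 0.09. Pax7, the satellite cell factor, differed by -0.05 (q = 0.437). Jam2, Jam3, Notch1 and Notch3 are also used in vessels, whose markers were lower in Mstn-null muscle as given below, and the part of vessels in these values was not tested.

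In the pathway of myostatin itself, 4 of 41 genes were called in each direction (median -0.02). Acvr2a and Acvr2b, the type II receptors, were 1.25-fold (q = 0.0138) and 1.16-fold (q = 0.0381) higher in Mstn-null muscle. The ligand Tgfb2 was 1.33-fold (q = 0.00994) and the inhibin subunit Inha 1.32-fold (q = 0.00643) higher there. Called higher in wild-type were the SMAD co-repressor Skil (1.28-fold, q = 0.0109), the BMP target Id3 (1.23-fold, q = 0.0430), the inhibitory Smad7 (1.12-fold, q = 0.0427) and the co-receptor Tgfbr3 (1.24-fold, q = 0.0330, another probe set at 0.02). Follistatin, Fst, which binds myostatin, differed by -0.27 (q = 0.0681). The related ligand Gdf11 differed by 0.00 (q = 0.640). Without wild-type pools 2 and 3, 1 of the 41 was called higher in Mstn-null and 0 in wild-type.

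Insulin and IGF pathway genes were likewise divided, with 4 of 34 called higher in Mstn-null and 3 in wild-type (median -0.02, Igf2 counted in the developmental list), and 1 in each direction with wild-type pools 2 and 3 left out. Irs1, the insulin receptor substrate, was 1.29-fold (q = 0.0284), the adaptor Grb10 1.26-fold (q = 0.0253), the kinase Akt2 1.21-fold (q = 0.00672) and the mTOR inhibitor Deptor 1.17-fold (q = 0.0278) higher in Mstn-null. Grb14, an adaptor that inhibits the insulin receptor, was 8.04, 8.09, 8.03, 8.16 and 8.29 in wild-type and 7.39, 7.23, 7.33, 7.44 and 7.08 in Mstn-null pools. The pools were far apart and the fold was 1.77 toward wild-type (q = 6.34e-05), with a dim probe set at 0.08. Igfbp4, an IGF binding protein, was 1.46-fold (q = 0.0238, another probe set at 0.03) and Igf1 1.23-fold (q = 0.0324) higher in wild-type. The groups overlapped for both.

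Of 16 other imprinted fetal growth genes, 2 were called, both higher in Mstn-null. Peg3, a zinc finger protein, was 1.61-fold (q = 0.00250) and Plagl1, a zinc finger transcription factor, 1.49-fold higher (q = 0.0151, a dimmer probe set at -0.03). The list's median was 0.09, and 1 of the 16 was called with wild-type pools 2 and 3 left out. Dlk1 differed by 0.09 (q = 0.356) and Meg3 by 0.02 (q = 0.583), both neighbours in another imprinted cluster.

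In the WNT pathway 1 of 39 genes was called higher in Mstn-null and 4 in wild-type (median -0.03), or 1 and 2 with wild-type pools 2 and 3 left out. The ligand Wnt4 was 8.02, 7.71, 8.06, 8.17 and 8.33 in wild-type and 8.5, 8.79, 8.79, 8.85 and 8.71 in Mstn-null pools. It was 1.59-fold higher without overlap (q = 0.00255). The secreted antagonists Dkk2 (1.5-fold, q = 0.000570), Sfrp2 (1.38-fold, q = 0.0352) and Sfrp5 (1.22-fold, q = 0.0154) and the pathway target Axin2 (1.14-fold, q = 0.0455, another probe set at 0.02) were higher in wild-type.

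Regulators of fibre type and oxidative capacity had 7 of 34 called in each direction (median -0.04), or 3 higher in Mstn-null and 4 in wild-type with wild-type pools 2 and 3 left out. The fast muscle AMP kinase subunit Prkag3 was 9.53, 9.22, 9.34, 9.53 and 9.52 in wild-type and 10.1, 10.3, 10.0, 10.4 and 9.98 in Mstn-null pools, 1.64-fold higher without overlap (q = 0.000739). Its partner Prkab2 was 1.36-fold (q = 0.00397), the calcium-dependent kinase Camk2a 1.28-fold (q = 0.0303) and the nuclear receptor Rxrg 1.27-fold higher (q = 0.0115). The oxidative regulators Esrrg (1.72-fold, q = 0.00469), Ppara (1.64-fold, q = 0.0342) and Perm1 (1.37-fold, q = 0.00162, another probe set at 0.04) and the calcineurin regulator Rcan2 (1.52-fold, q = 0.000751) were higher in wild-type. Ppargc1a, the co-activator that drives mitochondrial genes, differed by -0.52 and was not called (q = 0.161).

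Genes for protein breakdown were led by the proteasome. Of 31 subunit genes, 9 were called higher in Mstn-null and 1 in wild-type, the median was 0.16, and 29 differences were positive. The median was 0.09 with the white adipocyte covariate. Psma4 was 1.33-fold (q = 0.0464), Psmd6 1.21-fold (q = 0.0483), Psmd12 1.18-fold (q = 0.0353) and Psmd1 1.17-fold (q = 0.0188) higher in Mstn-null, with a dimmer Psmd6 probe set at -0.24. Psme1, an activator induced by interferon, was 1.25-fold higher in wild-type (q = 0.0493). Without wild-type pools 2 and 3, 0 of the 31 were called (limma) and the median was 0.13.

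Of 24 ubiquitin ligase and atrophy genes, 3 were called higher in Mstn-null, namely Gadd45a (1.46-fold, q = 0.0144), Trim54 (1.25-fold, q = 0.0299) and Psmd11 (1.15-fold, q = 0.0284). Higher in wild-type were Chac1 (1.66-fold, q = 0.0453) and Cebpb (1.26-fold, q = 0.00732), and 1 in each direction was called with wild-type pools 2 and 3 left out. The muscle ubiquitin ligases Fbxo32 and Trim63 differed by -0.61 (q = 0.0984) and -0.13 (q = 0.478). Of 27 autophagy and lysosome genes, Gaa, the lysosomal glucosidase that degrades glycogen (1.25-fold, q = 0.0144), and Sqstm1 (1.2-fold, q = 0.0342) were higher in Mstn-null and Gabarapl1 (1.26-fold, q = 0.00435) in wild-type.

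Hspb8 was 1.55-fold (q = 0.00159) and Hspb3 1.44-fold (q = 0.00201) higher in Mstn-null muscle, while the mitochondrial Hspe1 was 1.21-fold higher in wild-type (q = 0.00747), and the 21 genes had a median of -0.11. Of 20 stress response genes, Atf4 was 1.17-fold higher in Mstn-null (q = 0.0374) and Casp12 1.22-fold higher in wild-type (q = 0.0225). Translation, ribosome and cell cycle genes gave few calls. Eef2k, which slows elongation, was the called gene of 17 translation factors (1.25-fold higher in Mstn-null, q = 0.00773). Rrn3 (1.18-fold, q = 0.0213) and Bop1 (1.13-fold, q = 0.0289) were the called genes of 18 in ribosome biogenesis. Of 28 ribosomal protein genes and 26 cell cycle genes, 0 were called (limma, smallest q 0.0774 at Rpl37 and 0.0947 at Cdkn2c).

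Glycolytic genes were divided, with 9 of 16 differences positive, 7 negative and a median of 0.04. Called higher in Mstn-null were 3, namely Pfkfb4 (1.35-fold, q = 0.0272), which makes the activator of phosphofructokinase, Tpi1 (1.15-fold, q = 0.0324) and Pkm (1.15-fold, q = 0.0193). Ldha differed by 0.14 (q = 0.0650), Pgam2 by 0.15 (q = 0.0747), Eno3 by 0.10 (q = 0.174) and Aldoa by -0.02 (q = 0.569, 3 of its 4 other probe sets of the opposite sign and none called). For Ldha and Pgam2 the study lists q-values under 0.05 at the same probe sets, and the cause of the disagreement was not tested. Ldhb (-0.89 at its brightest probe set, the largest difference of the list) and Hk1 (1.14-fold, q = 0.0393) were higher in wild-type. With wild-type pools 2 and 3 left out, 0 of the 16 were called higher in Mstn-null and 1 in wild-type (limma). Of 14 glycogen genes, Stbd1 and Pgm1 (1.21-fold, q = 0.0103) were called, both higher in Mstn-null (median 0.11).

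The lists of the citric acid cycle, the respiratory chain and branched-chain amino acid breakdown were called only toward wild-type, with folds of 1.46 or less at the brightest probe sets. The citric acid cycle had 4 of 18 called (median -0.15), with Idh3b at 1.2-fold (q = 0.0305), Sdha at 1.19-fold (q = 0.0258), Mdh1 at 1.18-fold (q = 0.0210) and Dlst at 1.11-fold (q = 0.0465). The respiratory chain had 5 of 35 called (median -0.11), with Cox6a1 at 1.46-fold (q = 0.0427), Cox8a at 1.34-fold (q = 0.0399), Ndufs8 at 1.19-fold (q = 0.0398) and Cox7a1 at 1.15-fold (q = 0.0338). Breakdown of branched-chain amino acids had 4 of 20 called (median -0.13), with Mccc1 at 1.32-fold (q = 0.00658), Acat1 at 1.29-fold (q = 0.00658), Bckdha at 1.25-fold (q = 0.0362) and Pcca at 1.22-fold (q = 0.0353). Dimmer probe sets called the same way with larger folds included those of Idh3b (1.74-fold, q = 0.0201), Cox6a1 (1.62-fold, q = 0.0203) and Dlst (1.29-fold, q = 0.0167). Dim probe sets of Sdha, Mdh1 and Pcca differed by 0.09, 0.08 and 0.08. With wild-type pools 2 and 3 left out, 2 citric acid cycle genes, 1 respiratory chain gene and 3 branched-chain genes were called, all higher in wild-type. The median of the branched-chain list was 0.02 with the sex-linked covariate. Mdh2 differed by -0.01 (q = 0.626), and its sign changed with quantile normalization, where it was 0.04.

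Phosphagen and purine nucleotide genes had the widest spread of the metabolic lists. Of 13, 3 were called higher in Mstn-null, namely Gatm, Gamt and Ampd1, the muscle AMP deaminase (1.29-fold, q = 0.00378). Another 4 were called higher in wild-type, namely Mb, the deaminase of other tissues Ampd3 (1.41-fold, q = 0.00401), adenosine kinase Adk (1.27-fold, q = 0.0258) and the brain creatine kinase Ckb (1.17-fold, q = 0.0490). Among 23 antioxidant genes, catalase, Cat, was 9.86, 10.2, 9.91, 9.96 and 9.89 in wild-type and 9.05, 9.33, 9.02, 9.21 and 9.70 in Mstn-null pools. Mstn-null pool 5 was the closest to the wild-type range, and the fold was 1.63 toward wild-type (q = 0.00397). Sod3 (1.30-fold, q = 0.0256), Gpx4 (1.2-fold, q = 0.0244) and Prdx2 (1.15-fold, q = 0.0126) were also higher in wild-type, and Gstm2 (1.29-fold, q = 0.0165) and Selenow (1.15-fold, q = 0.0210) were higher in Mstn-null. With wild-type pools 2 and 3 left out, 1 antioxidant gene was called, higher in wild-type.

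Markers of cells other than fibres were mostly lower in Mstn-null muscle. Scd1, a lipid desaturase of fat cells, ran from 12.3 to 13.4 in wild-type and from 11.2 to 12.5 in Mstn-null pools. The groups overlapped, since Mstn-null pool 3 was above wild-type pool 4, and the fold was 1.99 (q = 0.0263). The lipid droplet protein Cidec was 1.97-fold (q = 0.0144), the acyltransferase Agpat2 1.93-fold (q = 0.0277) and Pck1 1.66-fold (q = 0.0362, a dim probe set at 0.07) higher in wild-type. The adipokine Adipoq differed by -0.67 (q = 0.0724) and Lep by -0.05 (q = 0.526). The median of the 17 white adipocyte genes was -0.67. Of 8 brown adipocyte genes 4 were called higher in wild-type (median -0.46), and these were Cidea (1.75-fold, q = 0.0324), Dio2 (1.51-fold, q = 0.0211, another probe set at 0.08), Elovl3 (1.44-fold, q = 0.00397) and Ppargc1b (1.23-fold, q = 0.0322). On leaving out wild-type pools 2 and 3, 0 of the 17 white adipocyte genes were called (limma) and their median was -0.47, and 1 of the 8 brown adipocyte genes was called.

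Vessel genes were lower in Mstn-null muscle by a smaller amount. All 15 endothelial genes lay below zero (median -0.17), and the list's mean level was 8.41 to 8.52 in wild-type and 8.17 to 8.35 in Mstn-null pools, with no overlap. Vwf, the clotting factor of endothelium, was 1.34-fold (q = 0.0123), the receptors Tie1 1.29-fold (q = 0.0315), Tek 1.25-fold (q = 0.0254) and Kdr 1.15-fold (q = 0.0489) higher in wild-type. Of 13 smooth muscle and pericyte genes 5 were called higher in wild-type, among them Tagln (1.34-fold, q = 0.00147), Pdgfrb (1.34-fold, q = 0.00917) and Myh11 (1.25-fold, q = 0.0261). With wild-type pools 2 and 3 left out, 1 endothelial and 3 smooth muscle genes were called, all higher in wild-type, and the endothelial median was -0.21. With the white adipocyte level as a covariate it was -0.28.

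Of 12 fibroblast genes 3 were called higher in wild-type, namely the matrix protein Dpt (1.35-fold, q = 0.00274), Gsn (1.32-fold, q = 0.00386) and Pi16 (1.29-fold, q = 0.0279, another probe set at 0.01). The matrix itself moved little. Of 24 collagens, Col19a1 was called (1.21-fold higher in Mstn-null, q = 0.0473), and of 36 matrix glycoprotein and remodelling genes Adamtsl1 was higher in Mstn-null (1.33-fold, q = 0.00386) and fibronectin, Fn1 (1.36-fold, q = 0.0391), and Mmp9 (1.17-fold, q = 0.0216) in wild-type. S100b was the called gene of 9 Schwann cell genes (1.17-fold higher in wild-type, q = 0.0345). Macrophage, B cell, tendon, neuron, neutrophil and mast cell, erythroid and epithelial markers gave 0 calls (limma), with q of 0.0637 at C1qa and 0.0955 at C1qb, both complement genes of macrophages.

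Clock, interferon and immediate early genes gave few calls. The clock output regulator Rora was 1.44-fold higher in Mstn-null (q = 0.0106), the called gene of 18 clock genes. Ifi27 was 1.46-fold higher in wild-type (q = 0.0373), the called gene of 20 interferon-stimulated genes, whose median was -0.19 and, without wild-type pools 2 and 3, -0.05. Of 22 immediate early genes, 0 were called (limma, q = 0.112 at Zfp36 and 0.135 at Dusp1), with a median of -0.15.

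Further genes that the study names were read in the same way. Cpne2, a calcium-binding copine, was 7.40, 7.36, 7.38, 7.52 and 7.46 in wild-type and 8.12, 8.05, 8.09, 8.16 and 7.98 in Mstn-null pools, 1.58-fold higher with tight groups (q = 2.05e-05). Zfp385a, a zinc finger protein, was 1.66-fold higher (q = 0.000108) and Atp6v1g1, a proton pump subunit, 1.5-fold higher (q = 0.00161). Ptpn3, a tyrosine phosphatase, was 1.76-fold (q = 1.80e-05), Smtnl1, a smoothelin-like protein, 2.06-fold (q = 9.83e-05), Plin5, a lipid droplet protein of oxidative cells, 1.72-fold (q = 0.000302) and Zscan26 1.21-fold (q = 0.0324) higher in wild-type. Of 3 Sp1 probe sets, 1 was called, 1.29-fold higher in wild-type (-0.36, q = 0.0352), and the brightest differed by -0.13 (q = 0.230). Trdn, triadin of the calcium release complex, differed by 0.16 at its brightest probe set (q = 0.0731), and 3 of its 5 others were called higher in Mstn-null (0.75, q = 0.00115, 0.26, q = 0.0369, and 0.25, q = 0.00924). Tuba4a, a tubulin, differed by 0.14 at its brightest probe set (q = 0.0802), and 1 of its others was called (0.23, q = 0.0488). Apobec2 differed by 0.13 (q = 0.233), Mmp13 by -0.01 (q = 0.587), Sox2 by 0.03 (q = 0.495), Des by 0.15 (q = 0.104) and Eef1a2 by 0.15 (q = 0.0561). For Eef1a2, and for Trdn and Tuba4a at their brightest probe sets, the study lists q-values under 0.05. The cause of the disagreement was not tested. Cisd1 differed by 0.01 at its brightest probe set (q = 0.601) and by -0.39 at another (q = 0.0416).

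The genotype difference at d35 was then set against that at the earlier ages, where tissue and age changed together and cannot be told apart. In 1 limma fit of all 30 pools, 322 probe sets (0.715%) had a difference at d35 unlike that at 17.5 d.p.c., more positive at d35 for 174 (0.386%) and more negative for 148 (0.329%). Against 13.5 d.p.c. there were 526 (1.17%), more positive for 266 (0.591%) and more negative for 260 (0.577%). A fit of the 20 pools of the ages compared gave 56 against 17.5 d.p.c. and 2169 against 13.5 d.p.c., and the replicate block gave 562 against 17.5 d.p.c. Igf2 differed by 1.31 at d35, by -0.01 at 17.5 d.p.c. and by 0.02 at 13.5 d.p.c., and the change from 17.5 d.p.c. was 1.32 ± 0.100 SE (q = 1.13e-09). Cd28 had differences of -0.02 and 0.09 before birth, and Gabrr2 of -0.07 and 0.11. Both changes were called against each age. Mybph stood at 0.45 and Gatm at 0.33 at 17.5 d.p.c., with q of 0.286 and 0.424 there. The change from 17.5 d.p.c. to d35 was called for Mybph (0.73, q = 0.0407) and not for Gatm (0.49, q = 0.116).

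Among genes higher in wild-type at d35, Mb was at -0.10 and 0.11 at 17.5 and 13.5 d.p.c., Lmod2 at -0.07 and -0.02, and Khdrbs3 at 0.06 and -0.07. The change to d35 was called for all 3 against both ages. Hp and Ces1d were at -1.05 and -0.78 at 17.5 d.p.c. (q = 0.248 and 0.251), and their difference at d35 was not shown to differ from it (q = 0.654 and 0.659). Xist was at -0.95 at 17.5 d.p.c. and -0.86 at 13.5 d.p.c., neither of them called (q of 0.759 and 1.0), and its changes to d35 were not called (q = 0.701 and 0.796). Of the 30 genes with the largest differences, 19 had a called change against 17.5 d.p.c. and 22 against 13.5 d.p.c. These genes were chosen for their difference at d35, which is part of the change tested. The 19 and 22 therefore follow in part from the choice and do not show how common such changes are.

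**Figure D5:**
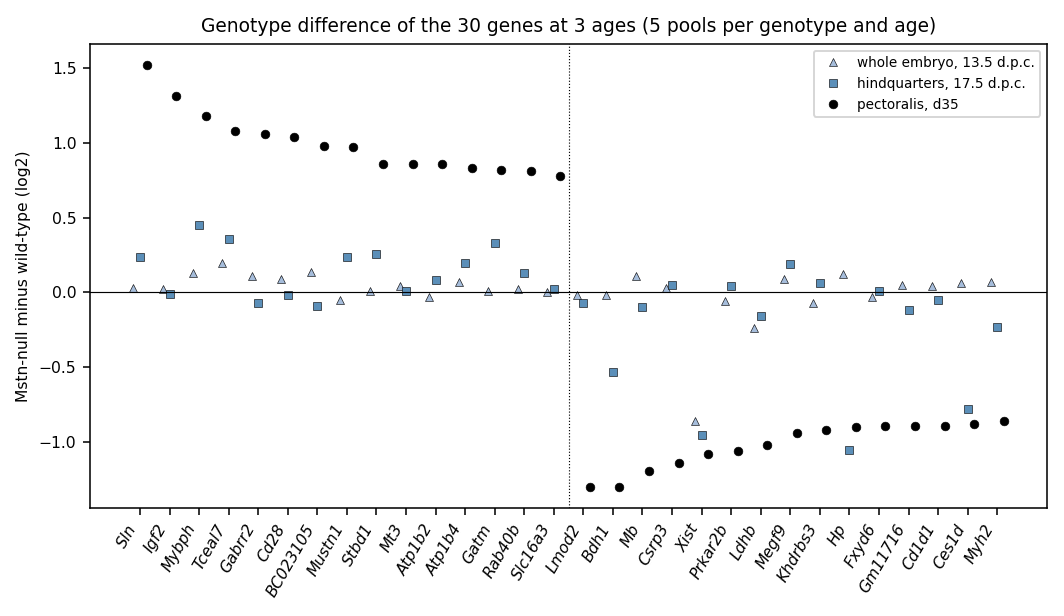
Genotype difference (Mstn-null minus wild-type, log2, y axis) of the 30 genes at 13.5 d.p.c. (triangles), 17.5 d.p.c. (squares) and d35 (circles), 5 pools per genotype and age. The genes were chosen at d35; before birth most lie within 0.5 of zero, while Xist, Hp and Ces1d reach -0.95, -1.05 and -0.78 at 17.5 d.p.c.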

How the data were processed

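Total RNA of 10 pectoralis pools was measured on the 2 chips MOE430A and MOE430B. The authors deposited log2 intensities that they computed with the affy package's RMA, whose version is not given in the sources used here. The 64 control probe sets of each chip were left out and both chips were joined into 45037 probe sets, with the MOE430A value kept for the 100 on both chips. Gene names came from the platform annotation: 34945 probe sets had 1 symbol, 932 several and 9160 none. Genotypes came from the sample labels, and 0 columns of per-sample values lay outside the samples.

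The comparison of genotypes used lmFit and eBayes of limma 3.58.1 under R 4.3.3, and p-values were turned into Storey q-values over all probe sets, with lambda from 0.05 to 0.95 in steps of 0.05. Values of single measures were compared by exact permutation of 5 against 5 pools, which cannot give a two-sided p below 0.00794. Tables were made with Python 3.11.15, pandas 2.3.3, numpy 2.4.6 and scipy 1.17.1, and plots with matplotlib 3.10.9. All p-values measure the spread between pools, and the number of arrays limits the precision. On simulated data with 50 changed probe sets per fold, 52% were recovered at 1.25-fold and 84% at 1.5-fold. At 2-fold 100% and at 4-fold 98% were recovered, with 5 false calls of 45037 probe sets. Far fewer probe sets were changed there than the 2062 called at d35. Whether these shares and the number of false calls carry over to the measured pools was not tested.

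The named genes were the 15 with the largest difference in each direction among those called, without overlap and outside the slow-twitch and fatty acid oxidation lists, up to 4 called members per list and direction at the brightest probe set (the 2 with the smallest p where none was called), and genes the study names. The gene lists and the comparison were chosen with earlier results of these data known. The fits with the sex-linked level and the white adipocyte level as covariates, and further genes named after their values were seen, were chosen after seeing the data. Other settings were Benjamini-Hochberg adjustment, each chip alone, a mean level of 6 or more, quantile or median scaling, eBayes with trend, all 30 pools, the replicate block, array weights, 1 probe set per gene and leaving out pools.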

Additional observations from a re-analysis of the deposited data

Results flagged for a closer look

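In 15 of 468 groups of 5 pools, 1 pool lay far from the other 4, where chance flags about 1 in 20 groups. Wild-type pool 3 was the far pool for Bdh1 (7.53) and Acadl (12.0), wild-type pool 4 for Cacng1 (10.1), Selenow (13.5) and Casp12 (7.07), and wild-type pool 5 for Fn1 (9.84) and Rhag (3.73). Wild-type pool 1 stood apart for Rps16 (4.90) and wild-type pool 2 for Smtnl1 (9.34). In Mstn-null muscle the far pool was pool 1 for Prkar2b (7.42), pool 3 for Pdgfrb (7.63), pool 4 for Acvr2a (8.33) and Psmd6 (11.1), and pool 5 for Pdk4 (9.76) and Thbs4 (8.48). All are log2 intensities.

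For 41 values the genotype difference at d35 was unlike that at an earlier age by the interaction term in limma, given as the d35 difference minus the earlier one (log2). Against 17.5 d.p.c. the genes higher in Mstn-null were Igf2 (1.32), Sln (1.28), Gabrr2 (1.13), Cd28 (1.06), BC023105 (1.06), Atp1b2 (0.78), Slc16a3 (0.77), Mybph (0.73), Mustn1 (0.73) and Stbd1 (0.61). Those higher in wild-type were Lmod2 (-1.24), Csrp3 (-1.19), Mb (-1.09), Khdrbs3 (-0.98), Fxyd6 (-0.90), Ldhb (-0.86), Cd1d1 (-0.84), Gm11716 (-0.77) and Myh2 (-0.64).

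Against 13.5 d.p.c. the values were 1.49 for Sln, 1.30 for Igf2, 1.05 for Mybph, 1.02 for Mustn1, 0.95 for Gabrr2 and for Cd28, 0.89 for Atp1b2, 0.86 for Stbd1, 0.84 for BC023105, 0.81 for Gatm, 0.80 for Rab40b and 0.79 for Slc16a3. On the other side they were -1.30 for Mb, -1.29 for Lmod2, -1.27 for Bdh1, -1.17 for Csrp3, -0.93 for Gm11716, Cd1d1 and Myh2, -0.86 for Fxyd6, -0.85 for Khdrbs3 and -0.78 for Ldhb. Tissue and age cannot be told apart in these values. The genes were chosen for their difference at d35, which each value contains, so the number of calls follows in part from the choice.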

How the results depend on the processing

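Against 936 probe sets called higher in Mstn-null and 1126 higher in wild-type muscle, Benjamini-Hochberg adjustment gave 614 and 710, and 1 probe set per gene, which tests 18193 in place of 45037, gave 629 (3.46% of those tested) and 719 (3.95%). Leaving out 1 pool gave 350 to 992 and 427 to 1100. The count for Mstn-null was moved by over 1.5 times by leaving out Mstn-null pool 3 (515), Mstn-null pool 4 (589), wild-type pool 2 (579) or wild-type pool 3 (350), and that for wild-type by Mstn-null pool 1 (592), Mstn-null pool 3 (551) or wild-type pool 3 (427). Without wild-type pools 2 and 3 together the counts were 232 and 406. The sex-linked covariate gave 14 and 33, and the white adipocyte covariate 20 and 51.

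The replicate numbers did not pair the samples: same-numbered pools correlated at -0.172 to 0.139 and 1 of 10 pools lay closest to its own number. With the replicate block the counts were 784 and 1070, and 165 of 192 named calls were kept. For the change from 17.5 d.p.c. (322 probe sets) the block gave 562 and the 20 pools of both time points alone gave 56, and for that from 13.5 d.p.c. (526) the 20 pools gave 2169. The cause was not tested.

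Of the 192 named calls, 82 held under every alternative other than the covariate fits. Without wild-type pools 2 and 3 together 92 were kept, with the sex-linked covariate 18 and with the white adipocyte covariate 28. The called value that changed sign was Eif2s3y (-0.02 with the sex-linked covariate, which contains it). The others that did were small and not called. With the white adipocyte covariate Epb42 was at -0.03, Krt15 at -0.05, Sp1 at 0.03, Cisd1 at -0.02 and Mef2c at -0.08. With the sex-linked covariate Mmp13 was at 0.02, Mdh2 at 0.09 and Mef2c at -0.11. Mdh2 was at 0.04 with quantile normalization and 0.00 with arrays shifted to a common median, and Cisd1 was at -0.02 without wild-type pools 2 and 3. On leaving out 1 pool, Mmp13 ran from -0.04 to 0.01, Mdh2 from -0.06 to 0.03, Cisd1 from -0.01 to 0.02 and Mef2c from -0.01 to 0.15. Among called probe sets, 111 higher in Mstn-null and 169 higher in wild-type had a mean level under 6.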
